A study of Mus musculus with 2 samples.

Results

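The genes described here are 40 members of the nuclear receptor superfamily other than the retinoid receptors of the Rar and Rxr families, chosen by gene symbol from the 38926 features listed in each file. All 40 symbols were found. The samples were 2 RNA-seq libraries of pleuroperitoneal folds (PPFs), the paired embryonic folds that grow over the liver and give rise to the connective tissue of the diaphragm. They formed a single group of wild type mouse embryos (strain "mixed, 129s/SvlmJ-C57/BL6J") at embryonic day 12.5, untreated as far as the labels say, named replicates 1 and 2. Each library pooled 2 pairs of folds, freed by hand after the heart and lungs had been taken away, and came from poly(A)-selected RNA prepared with a kit that marks strand. The sources used here do not say if those pairs were of different litters. The series was made to rank candidate genes from human congenital diaphragmatic hernia, and it holds no mutant or treated group, so the comparisons below are of level between genes and of the same gene between the libraries.

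Nuclear receptors are transcription factors that carry their own ligand sensor. A ligand-binding domain recognises a steroid, thyroid hormone, vitamin or lipid, and a pair of zinc fingers binds DNA, with a short stretch of the first finger, the P-box, choosing the letters that are read. Some receptors act as pairs of the same protein, many act with an Rxr partner, and others have no known hormone and are called orphans. Nr2f2, an orphan of the COUP-TF family, is known from mouse and human genetics as a gene needed for a closed diaphragm, which makes the folds a tissue of interest for this family.

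The total count was 26370253 in replicate 1 and 23255957 in replicate 2. Levels are given in TPM, for which the authors divided counts by gene length and brought both libraries to a common sum, so that genes can be set side by side. Genes that reached 1 TPM in each of the libraries count as expressed. By that rule 24 of the 40 receptors were expressed, against 44.4% of all features listed and 63.0% of the 20719 protein-coding genes, and 12 receptors reached 10 TPM in both libraries, against 46.0% of protein-coding genes. The median receptor stood at 1.95 TPM (mean of n = 2 libraries), below the protein-coding median of 7.35 TPM. Among expressed genes alone the medians were 12.5 TPM for receptors and 26.9 TPM for protein-coding genes. In bulk tissue a low level can come from fewer cells that hold the transcript or from less transcript per cell, and the data do not tell these apart. Intervals and floors cover counting error only, and even that in part, since reads that carry no molecular identifiers can be copies of the same molecule.

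**Figure D1:**
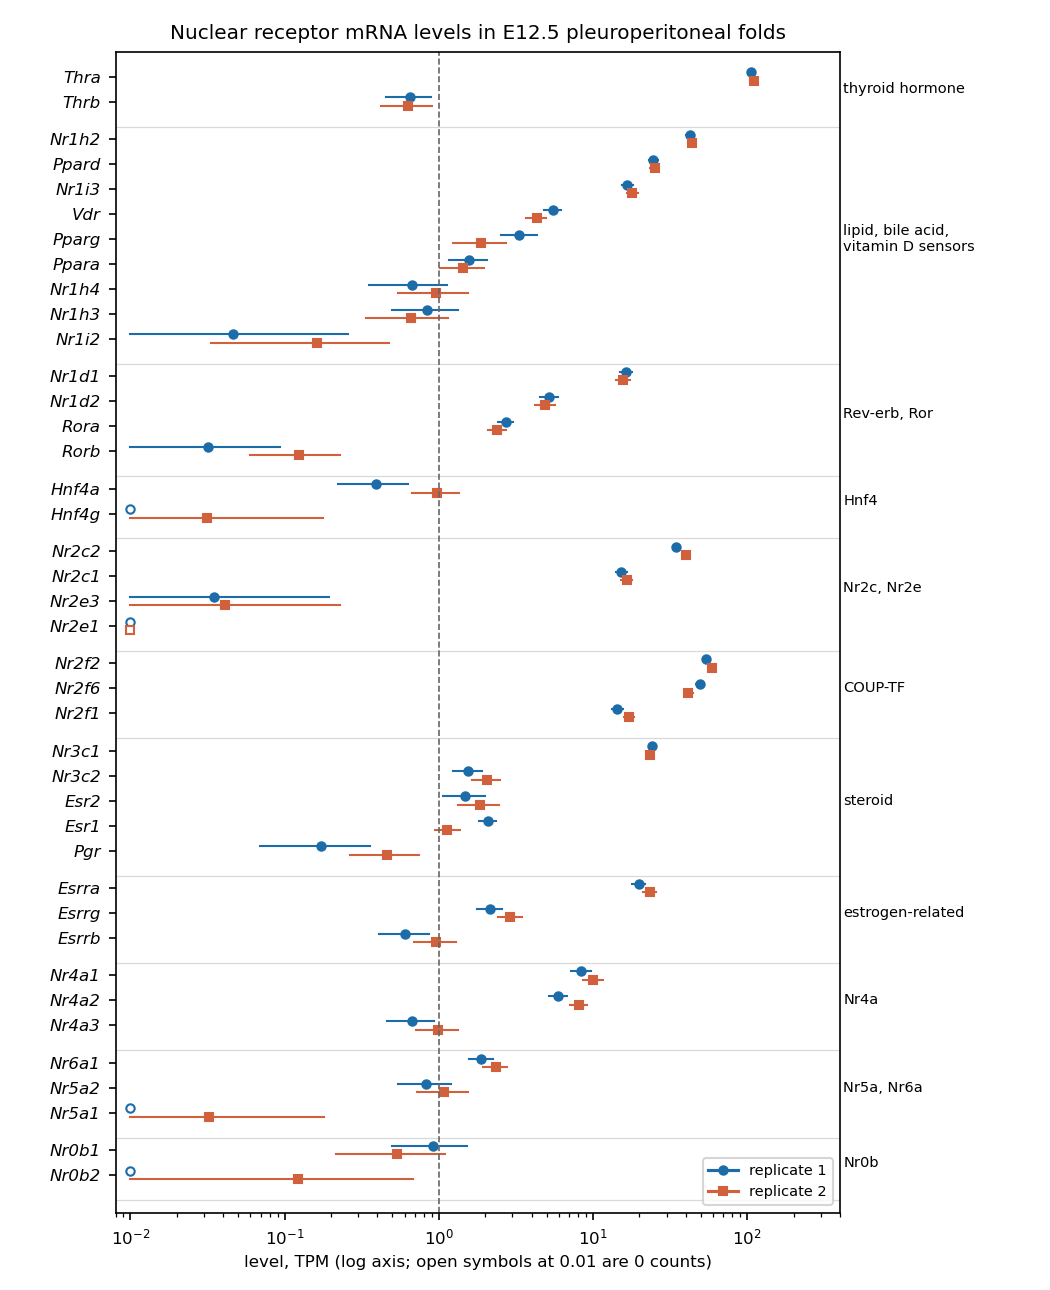
Level of each of the 40 receptors in both libraries, in TPM on a log axis, grouped by role, with 95% exact Poisson intervals cut off at 0.01 TPM where they run lower. Circles are replicate 1 and squares replicate 2, open symbols mark 0 counts, and the dashed line is the 1 TPM threshold. Thra stands alone above 100 TPM, and 11 receptors lie between 10 and 100 TPM.

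A few genes held most of the receptor transcript. The 40 receptors summed to 465 TPM in replicate 1 and 485 TPM in replicate 2, and the 5 highest, Thra, Nr2f2, Nr2f6, Nr1h2 and Nr2c2, held 61.6% and 60.9% of these sums. Thra alone held 22.7% in each library. In the order by mean level, 23 of the 39 pairs of neighbours had overlapping library values and cannot be ranked. At the threshold itself, Esr1 (2.08 and 1.14 TPM) lay just inside, with an interval of 0.938 to 1.37 TPM in replicate 2. Nr5a2 (0.830 and 1.08 TPM) lay just outside because of replicate 1. By mean level Ppara (1.57 and 1.43 TPM) was the lowest expressed receptor.

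Thra, the gene of thyroid hormone receptor alpha (chr11:98740638-98769006, GRCm38, plus strand), was the highest of the receptors. It had 4138 counts (105.7 TPM) in replicate 1 and 3701 counts (110.3 TPM) in replicate 2, a mean of 108 ± 3.29 TPM (SD, n = 2). Its paralog Thrb, which encodes the beta receptor best known from liver, pituitary and inner ear, stood at 0.647 and 0.630 TPM. Thra was thus 163-fold above Thrb in replicate 1 and 175-fold above it in replicate 2. The proteins' DNA-binding domains share 50 of 58 residues as translated, and the longest identical run of their transcripts is 26 bases.

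The 40 genes were also sorted by their P-box, since receptors with the same P-box read the same core letters. A region coding for a pair of zinc fingers was found in the GENCODE M21 transcripts of 38 genes, and was missing in Nr0b1 and Nr0b2, which are known to lack a DNA-binding domain. The 38 genes had 9 different P-boxes. These are classes of coded sequence, and whether different P-boxes read different letters was not examined. The first zinc finger of 6 receptors is printed to set 3 of these P-boxes side by side. Each is the coding strand of GRCm38, 5′ to 3′, with the 5 codons of the P-box, which follow the codon of the third zinc-binding cysteine, in capitals. The fingers lie at chr11:98756958-98760878 (plus strand, over exons 4 and 5 with an intron between) for Thra, chr7:44552100-44552168 (minus strand, exon 5) for Nr1h2, chr7:70360027-70360095 (minus strand, exon 1) for Nr2f2, chr13:78198259-78198327 (minus strand, exon 1) for Nr2f1, chr8:71381035-71381103 (minus strand, exon 1) for Nr2f6 and chr19:6920085-6920153 (minus strand, exon 2) for Esrra.
Thra: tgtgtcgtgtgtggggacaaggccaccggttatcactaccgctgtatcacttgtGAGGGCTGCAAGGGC
Nr1h2: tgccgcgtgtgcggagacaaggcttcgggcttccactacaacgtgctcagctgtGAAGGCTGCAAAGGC
Nr2f2: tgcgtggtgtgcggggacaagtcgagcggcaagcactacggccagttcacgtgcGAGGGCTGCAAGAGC
Nr2f1: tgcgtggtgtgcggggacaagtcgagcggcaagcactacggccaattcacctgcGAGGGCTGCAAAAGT
Nr2f6: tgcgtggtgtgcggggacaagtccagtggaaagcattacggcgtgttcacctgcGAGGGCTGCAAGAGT
Esrra: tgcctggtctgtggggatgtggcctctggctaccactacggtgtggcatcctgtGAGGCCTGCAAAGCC

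The P-box of Thra and Nr1h2 was the most common, shared by 21 receptors, of which 15 were expressed and which held 63.0% of the receptor TPM in replicate 1 and 63.6% in replicate 2. Besides Thra and Nr1h2 these are Thrb, the Ppar, Vdr, Nr1i, Nr1d, Ror, Nr2c and Nr4a genes, Nr1h3, Nr1h4 and Nr6a1. The 3 COUP-TF genes have a P-box of their own and were all expressed, with 25.4% and 24.3% of the receptor TPM. Nr3c1, Nr3c2 and Pgr share the steroid P-box, 2 of the 3 were expressed, and the class held 5.57% and 5.32%. The estrogen-related P-box of Esrra, Esrrb and Esrrg held 4.84% and 5.59%, with 2 of 3 expressed. Esr1 and Esr2 share another P-box and held 0.762% and 0.613%. None of the 2 Hnf4 genes, the 2 Nr5a genes, Nr2e1 and Nr2e3, which hold the other P-boxes, was expressed.

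All 3 COUP-TF genes, orphan receptors active in embryonic mesenchyme, vessels and brain, were expressed above 10 TPM in both libraries. Nr2f2 (chr7:70351944-70366735, minus strand) had 2243 counts (54.4 TPM) in replicate 1 and 2097 counts (59.3 TPM) in replicate 2. Nr2f6 (chr8:71374123-71381960, minus strand) had 1253 counts (49.5 TPM) and 901 counts (41.6 TPM). Nr2f1 (chr13:78188973-78199757, minus strand) had 578 counts (14.3 TPM) and 592 counts (17.1 TPM). Nr2f2 stood above Nr2f1 in both libraries, by 3.79-fold and 3.46-fold, whereas it exceeded Nr2f6 by 1.098-fold in replicate 1 and 1.43-fold in replicate 2. The order of Nr2f2 and Nr2f6 depends on the length used. Per base of all annotated exons the mean level was 45.5 for Nr2f6 and 32.0 for Nr2f2. The finger sequences printed above show how alike Nr2f1 and Nr2f2 are. Their DNA-binding domains share 55 of 56 residues and 90.5% of bases, and their transcripts hold an identical run of 59 bases, the longest of the 21 pairs of related receptors compared, so reads inside that run could belong to either gene.

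The receptors for lipids, bile acids, xenobiotics and vitamin D, which pair with Rxr, split into 6 expressed and 3 not expressed genes. Nr1h2, the oxysterol receptor LXR beta (chr7:44549616-44553951, minus strand), led them with 1216 counts (42.6 TPM) and 1078 counts (44.1 TPM). Its paralog Nr1h3, LXR alpha, had 18 and 12 counts (0.843 and 0.656 TPM), so the level of Nr1h2 was 50.5-fold and 67.1-fold that of Nr1h3. Ppard, the fatty acid receptor PPAR delta (chr17:28232700-28301474, plus strand), stood at 24.6 and 25.2 TPM. Both other Ppar genes were lower: Ppara, the regulator of fatty acid oxidation in liver, at 1.57 and 1.43 TPM, and Pparg, the regulator of fat cell differentiation, at 3.33 and 1.87 TPM. The level of Ppard was 15.7-fold and 17.5-fold that of Ppara and 7.40-fold and 13.4-fold that of Pparg.

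Vdr, the vitamin D receptor gene, had 263 counts (5.49 TPM) and 177 counts (4.31 TPM). The bile acid receptor gene Nr1h4, FXR, had 13 and 16 counts (0.665 and 0.956 TPM). Nr1i2, the xenobiotic receptor PXR, had 1 count and 3 counts. Nr1i2, known from liver and intestine, was the lowest of the 9. Nr1i3, the xenobiotic receptor CAR of liver, was listed at 16.7 and 17.95 TPM, but most of its exon bases overlap a neighbouring gene, as given with the overlaps below.

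Of the receptors linked to the circadian clock, Nr1d1, which encodes the heme-binding repressor Rev-erb alpha (chr11:98767932-98775333, minus strand), stood at 16.4 and 15.6 TPM and Nr1d2, Rev-erb beta, at 5.16 and 4.87 TPM. Nr1d1 was 3.18-fold above Nr1d2 in replicate 1 and 3.21-fold in replicate 2. Rora, whose protein activates from the elements that the Rev-erb proteins repress, stood at 2.71 and 2.38 TPM. Rorb, known from brain and retina, had 3 counts and 10 counts (0.0319 and 0.124 TPM). Clock genes were measured beside them: of 15 listed, 14 were found and 13 expressed, with Tef at 34.5 ± 1.76 TPM, Cry1 at 33.05 ± 0.509 TPM and Nfil3 at 30.5 ± 2.26 TPM highest and Npas2 lowest at 1.03 ± 0.394 TPM.

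Both testicular orphan receptor genes were expressed. Nr2c2 (chr6:92091390-92174294, plus strand), TR4, had 2674 counts (34.4 TPM) and 2673 counts (40.2 TPM), and Nr2c1 (chr10:94148023-94197211, plus strand), TR2, 596 counts (15.2 TPM) and 555 counts (16.6 TPM). The ratio of Nr2c2 to Nr2c1 was 2.26 and 2.42. Their relatives known from neural stem cells and photoreceptors were near or at the floor: Nr2e1 had 0 counts in each, a value compatible with at most 0.111 TPM at a floor of 3 counts, and Nr2e3 had 1 count in each. Nr2e1 was the only receptor with 0 counts in both libraries, a state shared by 19.2% of protein-coding genes.

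Among the steroid receptors, Nr3c1, the glucocorticoid receptor gene (chr18:39410545-39519421, minus strand), was the highest, with 1526 counts (24.2 TPM) and 1259 counts (23.3 TPM). Nr3c2, the mineralocorticoid receptor gene, stood at 1.55 and 2.04 TPM, so Nr3c1 exceeded it 15.7-fold and 11.4-fold. Esr1, estrogen receptor alpha (chr10:4611593-5005614, plus strand), had 241 counts (2.08 TPM) and 113 counts (1.14 TPM). Esr2, estrogen receptor beta (chr12:76120419-76177259, minus strand), had 42 counts (1.47 TPM) and 45 counts (1.84 TPM). By deposited gene length the order of the estrogen receptors turned between libraries, with Esr1 at 1.41 times the level of Esr2 in replicate 1 and 0.619 times in replicate 2. Their counting intervals overlapped in each library, at 1.82 to 2.36 and 1.06 to 1.99 TPM in replicate 1 and 0.938 to 1.37 and 1.34 to 2.46 TPM in replicate 2. The deposited length of Esr1 was 13661 bases and its longest transcript has 6339. Per base of the longest transcript the mean level of Esr1 was 3.47 and that of Esr2 1.66. Pgr, the progesterone receptor gene, had 7 and 16 counts (0.173 and 0.461 TPM).

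The estrogen-related receptors, orphans that drive genes of mitochondrial energy metabolism, were led by Esrra (chr19:6910977-6921813, minus strand), with 426 counts (19.8 TPM) and 430 counts (23.3 TPM). Esrrg stood at 2.15 and 2.90 TPM. Esrrb, known from embryonic stem cells and placenta, stayed below 1 TPM, at 0.604 and 0.956 TPM. Esrra was 9.22-fold above Esrrg in replicate 1 and 8.03-fold in replicate 2.

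The Nr4a receptors are orphans whose genes respond within minutes to growth factors, depolarisation or handling of cells. Nr4a1 had 176 counts (8.38 TPM) and 180 counts (10.01 TPM), Nr4a2 205 counts (5.95 TPM) and 238 counts (8.07 TPM), and Nr4a3 34 counts (0.669 TPM) and 43 counts (0.988 TPM). Nr4a1 exceeded Nr4a2 by 1.41-fold and 1.24-fold and Nr4a3 by 12.5-fold and 10.1-fold. The DNA-binding domains of Nr4a2 and Nr4a3 are identical over 56 of 56 residues, while 83.9% of their bases match.

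The promoters of the 3 Nr4a genes are shown because the genes share an early response and their windows share a sequence feature that the choice of genes did not use. Each window runs from 250 bases before to 50 bases after the RefSeq start (GRCm38.p6) and is printed 5′ to 3′ on the gene's strand: chr15:101266596-101266895 (plus) for Nr4a1, chr2:57123954-57124253 (minus) for Nr4a2 and chr4:48045055-48045354 (plus) for Nr4a3. Capitals mark TGACG or its reverse complement CGTCA, the core of the cyclic AMP response element (CRE).
Nr4a1: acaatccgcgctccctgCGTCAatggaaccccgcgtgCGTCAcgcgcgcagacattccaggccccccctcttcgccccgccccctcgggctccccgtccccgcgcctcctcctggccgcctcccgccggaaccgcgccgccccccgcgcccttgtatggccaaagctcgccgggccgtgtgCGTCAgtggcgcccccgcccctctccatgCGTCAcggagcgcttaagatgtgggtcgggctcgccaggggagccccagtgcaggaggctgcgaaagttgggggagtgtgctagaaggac
Nr4a2: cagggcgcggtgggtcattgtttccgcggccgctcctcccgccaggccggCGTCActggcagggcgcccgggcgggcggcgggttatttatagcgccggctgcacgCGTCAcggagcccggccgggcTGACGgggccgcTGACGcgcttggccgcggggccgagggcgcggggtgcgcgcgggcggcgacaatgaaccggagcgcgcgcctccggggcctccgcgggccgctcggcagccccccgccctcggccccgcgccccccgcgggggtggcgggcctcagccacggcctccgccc
Nr4a3: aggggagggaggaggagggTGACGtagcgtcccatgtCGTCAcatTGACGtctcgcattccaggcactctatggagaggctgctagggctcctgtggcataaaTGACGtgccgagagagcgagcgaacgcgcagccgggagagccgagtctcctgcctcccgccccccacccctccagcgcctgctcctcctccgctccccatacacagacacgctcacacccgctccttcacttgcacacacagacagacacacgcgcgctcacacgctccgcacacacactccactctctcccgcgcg

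Each of the 3 windows held 4 copies of the core, counted on both strands. Of 32851 promoter windows of the same length, 20.8% held at least 1 copy, 5.01% at least 2, 1.03% at least 3 and 0.231% at least 4. The core itself contains a CpG, a C followed by a G. The Nr4a1, Nr4a2 and Nr4a3 windows held 35, 52 and 26 CpG, with 72.3%, 81.7% and 64.7% G and C. The shares over all windows were not matched for CpG content, so they do not say how unusual 4 copies are among CpG-rich windows. The full palindrome TGACGTCA was in none of the 3 windows and in 1.79% of all windows. A match of letters is not a bound site, and the libraries measure no binding. The feature was looked for with the genes' early response known and has no test.

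Over all 40 genes, 36 had at least 1 RefSeq window, 50 windows in all. The receptor core AGGTCA was in 8 of the 50 (16.3% of all windows on either strand), the E-box CACGTG in 4 (7.15%), TATAAA in 8 (13.6%) and the GC box GGGCGG in 21 (35.7%). The CRE core was in 14 of the 50. A window with at least 50% G and C and a CpG ratio of observed to expected of at least 0.6 was found for 13 of the 22 expressed receptors with a window and for 4 of the 14 not expressed. Among protein-coding genes the shares were 71.3% of those expressed and 11.9% of those not expressed.

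The last members are receptors known from germ line, gonad and adrenal. Nr6a1, germ cell nuclear factor, was expressed, at 1.89 and 2.33 TPM. Nr5a2, known from liver, pancreas and early embryo, had 27 and 30 counts (0.830 and 1.08 TPM). Nr5a1, the regulator of steroid-producing cells of adrenal and gonad, had 0 counts in replicate 1 and 1 count in replicate 2, against a floor of 0.0973 TPM. Nr0b1, an orphan without zinc fingers that acts with Nr5a1, had 14 and 7 counts (0.913 and 0.533 TPM), and Nr0b2, which represses other receptors in liver, had 0 counts and 1 count. Hnf4a, a regulator of hepatocyte and gut epithelium, had 16 counts (0.391 TPM) and 34 counts (0.969 TPM), and Hnf4g had 0 counts and 1 count.

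Exon overlap bears on several of these levels. Per the GENCODE M21 annotation, 12 receptors share exon bases with another gene, and 3 share at least 10%. Noncoding features nested in the exons of a host gene of at least 1000 counts gave a check of strand. On the opposite strand, the counts per base of 83 such features were a median of 1.00 times those of the host. On the host's strand the median was 0.267 times, over 131 features. Both medians include features of few counts, as 70 of the 83 and 100 of the 131 had at least 10 counts. The deposited counts thus did not keep opposite strands apart. Nr1i3 shares 3304 of its 4414 exon bases (74.9%) with Tomm40l, a gene on the opposite strand that stood at 27.8 and 29.0 TPM, above Nr1i3 in both libraries. Nr2f6 shares 1622 of 2983 bases (54.4%) with Ocel1 on the opposite strand, at 17.1 and 14.5 TPM. Nr2c2 shares 4590 of its 14935 annotated bases (30.7%) with Mrps25, also on the opposite strand, at 41.4 and 39.1 TPM, and its deposited length was 9152 bases. The levels of Nr1i3, Nr2f6 and Nr2c2 can therefore hold reads of these neighbours, by an amount that was not tested. Thra and Nr1d1, on opposite strands, overlap at their 3′ ends by 263 bases, 5.70% of Thra and 8.55% of Nr1d1, and Nr2f2 shares 7.46% of its bases with a noncoding gene.

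**Figure D2:**
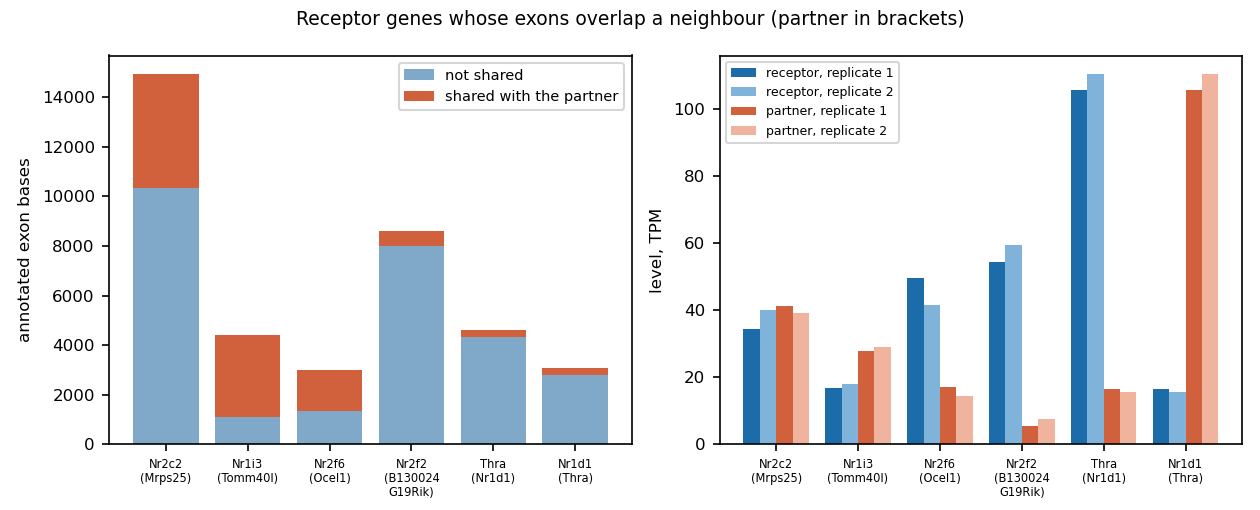
Left, annotated exon bases of 6 receptors, split into those shared with the named neighbour (orange) and those not shared (blue). Right, level in TPM of each receptor (blue bars) and of its neighbour (orange bars) in replicates 1 and 2; single libraries, no error bars. Nr1i3 shares 74.9% of its bases with a neighbour at a higher level, whereas Thra shares 5.70% with Nr1d1.

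The libraries were then compared gene by gene, which asks how alike the receptor transcripts of separate dissections were. The exact two-sided binomial test on counts, with library sizes scaled by TMM and Benjamini-Hochberg adjustment over the 19433 genes with at least 10 counts, compares these 2 libraries only, since counting error is the only noise in it. Ratios are of replicate 2 to replicate 1 on the log2 scale, with 95% exact intervals. Of the 34 receptors tested, 3 were higher in replicate 2 (8.85% of all genes tested) and 3 lower (8.65% of all genes tested) at adjusted p under 0.05, 6 in all (17.5% of all genes tested). At 1.5-fold or more 1 was higher, Hnf4a (1.34% of all genes tested), and 1 lower, Esr1 (1.01% of all genes tested). At 2-fold or more, Hnf4a was the only receptor called, 1 of 34, against 1.26% of all genes tested. The median ratio was 0.084 over the receptors and -0.014 over all genes tested. Of the 24 expressed receptors 22 differed by less than 1.5-fold, the exceptions being Esr1 and Pparg. The median coefficient of variation of the 24 was 11.2%, against 5.10% for expressed protein-coding genes. These coefficients are not matched for level, as the expressed receptors had a median of 12.5 TPM and expressed protein-coding genes 26.9 TPM. Counting error is larger relative to level at low counts, and its part in the coefficients was not tested.

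**Figure D3:**
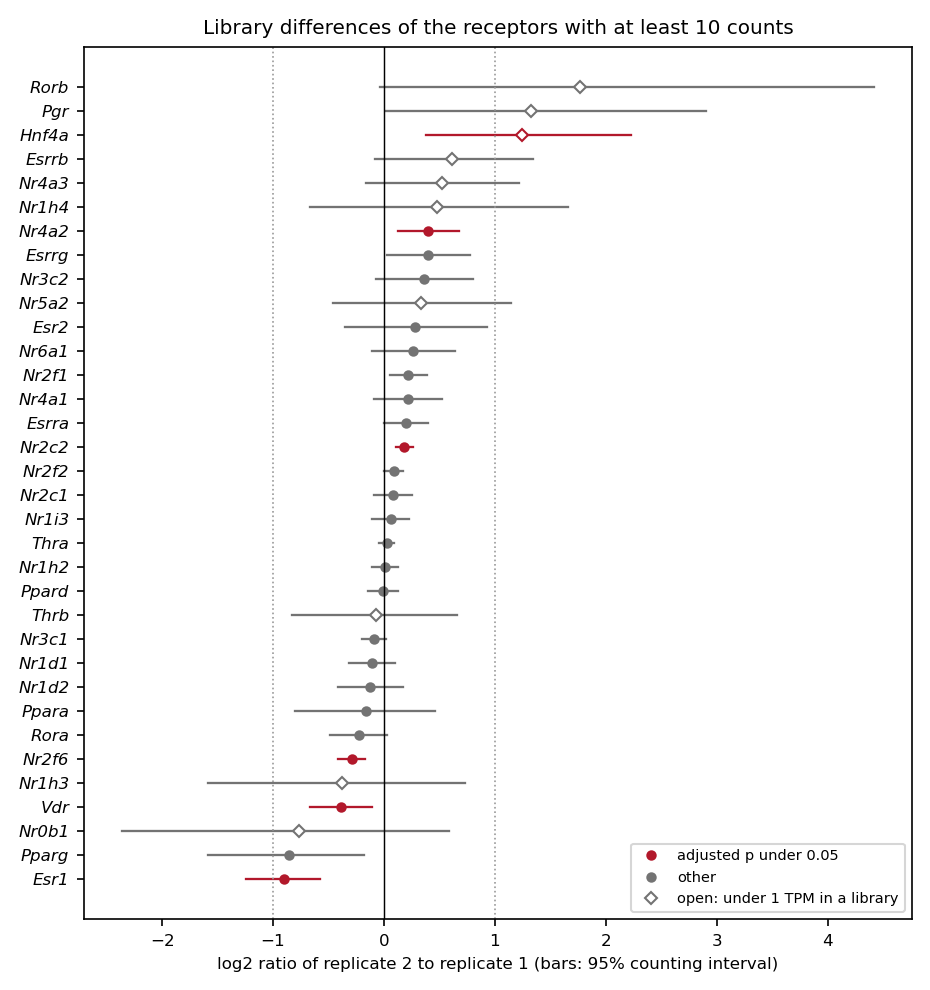
Log2 ratio of replicate 2 to replicate 1 for the 34 receptors with at least 10 counts, with 95% exact counting intervals. Red marks adjusted p under 0.05, open diamonds are receptors under 1 TPM in a library, and dotted lines mark 2-fold. Hnf4a (1.25), Nr4a2 (0.40) and Nr2c2 (0.18) are red to the right of 0, and Nr2f6 (-0.29), Vdr (-0.39) and Esr1 (-0.90) are red to the left.

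Hnf4a was higher in replicate 2, with a ratio of 1.25 (0.38 to 2.23; exact binomial test, adjusted p = 0.0203), from 16 and 34 counts. Esr1 was lower in replicate 2, with a ratio of -0.90 (-1.24 to -0.58; exact binomial test, adjusted p = 4.13e-07). Vdr was lower by less, at -0.39 (-0.67 to -0.11; exact binomial test, adjusted p = 0.0352). Nr4a2 was higher at 0.40 (0.12 to 0.68; exact binomial test, adjusted p = 0.0253). Nr2c2 was higher at 0.18 (exact binomial test, adjusted p = 6.36e-05), and its neighbour Mrps25 had a ratio of -0.12. Nr2f6 was lower at -0.29 (exact binomial test, adjusted p = 6.97e-05), and Ocel1, with which it shares exon bases, had nearly the same ratio, -0.28.

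Some of these calls rested on the noise model or on gene length. With a common dispersion of 0.00639 estimated over both libraries (edgeR's exact test) Esr1 alone of the 6 remained, with adjusted p = 0.0155, and Hnf4a had adjusted p = 0.404. That dispersion takes the differences between the same 2 libraries over all genes as noise. A call lost there therefore cannot show that the libraries are alike in that gene. Ratios also rose with gene length, from a median of -0.077 in the second of 10 length classes to 0.090 in the longest. With that trend removed Nr2c2 had a ratio of 0.093 (exact binomial test, adjusted p = 0.105), while the other 5 calls held.

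The other 28 receptors tested did not pass the threshold. Thra, the receptor with the most counts, had a ratio of 0.023 (-0.041 to 0.088), the narrowest interval of the receptors tested. Nr1h2 had a ratio of 0.011, Ppard of -0.007 and Nr3c1 of -0.093. Nr2f2 (0.087) and Nr2f1 (0.22; exact binomial test, adjusted p = 0.0548) leaned the same way. Pparg had 56 counts and 27 counts, a ratio of -0.85 (-1.59 to -0.18; exact binomial test, adjusted p = 0.0595). Pgr had a ratio of 1.32 (0.02 to 2.90) and Rorb of 1.77 (-0.04 to 4.42), intervals that their few counts leave wide. The 6 receptors under 10 counts, Nr1i2, Nr0b2, Nr2e3, Nr5a1, Hnf4g and Nr2e1, were not tested.

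Markers of other cell types moved between the libraries together with some receptors. Of 11 hepatocyte markers tested 9 were higher in replicate 2 (8.85% of all genes tested) and none lower. By 2-fold or more 8 were higher (0.710% of all genes tested). All 12 markers summed to 145 TPM in replicate 1 and 356 TPM in replicate 2, a direction shared with Hnf4a. None of the 12 was at 0 counts. Afp stood at 58.5 and 149.8 TPM, Alb at 35.9 and 103.6 TPM, Trf at 24.5 and 41.6 TPM, and Foxa3, the lowest, at 2 and 3 counts. Apob had the largest ratio, 1.92. The part of hepatocyte RNA in the Hnf4a difference was not tested.

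Markers of mesonephros and nephric duct went the other way, the direction of Esr1, with 5 of 8 lower in replicate 2, all by 2-fold or more (0.551% of all genes tested), none higher, and a sum of 58.2 and 38.5 TPM. Pax8 had 69 and 3 counts, Cdh16 20 and 0 counts, Emx2 518 and 179 counts, Gdnf 23 and 20 counts, Pax2, the lowest, 13 and 2 counts, and Six2, the highest, 33.2 and 29.2 TPM. Of 10 gonad and adrenal markers tested 3 were lower (8.65% of all genes tested) and 2 higher (8.85% of all genes tested). The lower were Emx2 (-1.35), which is also on the nephric list, Amhr2 (-1.07) and Lhx9 (-0.53), and the higher were Star (0.59) and Sox9 (0.53). The gonad and adrenal sum was 378 and 371 TPM, carried by Gata4 (176 TPM), Wt1 (90.7 TPM) and Fdx1, and Foxl2 had 0 counts. Wt1 is also on the list of fold fibroblasts and mesothelium, and Fdx1 also serves other mitochondria. The sum is therefore no measure of gonad and adrenal RNA. On the same list Cyp11a1 had 3 and 4 counts, Cyp17a1 7 and 13, and Hsd3b1 14 and 15, while Star had 93 and 123. The part of nephric, gonad and adrenal RNA in the Esr1 difference was not tested. Neuron and sympathetic markers were higher in replicate 2 for 6 of 9 (8.85% of all genes tested), 5 of them by 2-fold or more (0.710% of all genes tested), from a sum of 38.9 to 71.9 TPM, led by Gap43, Stmn2 and Tubb3, with the largest ratios in Elavl3 (2.54) and Dbh (2.01) and with Mnx1 at 0 counts.

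Immediate early genes, which respond to dissection as Nr4a genes do, were expressed for 12 of 15, with sums of 339 and 346 TPM. Of the 15, 2 were higher in replicate 2 (8.85% of all genes tested) and none lower. Jun (147 ± 1.85 TPM), Ier2 (57.7 ± 3.02 TPM) and Btg2 (32.9 ± 1.43 TPM) were highest and Egr2 lowest (0.399 ± 0.123 TPM), and Egr3 (0.98, not passing the test) and Klf4 (0.73) had the largest ratios. Whether dissection moved Nr4a2 was not tested. Gut and lung epithelium was little represented, with 2 of 10 markers expressed, Epcam (3.70 TPM) and Sox2 (1.31 TPM), Cdh1 at 0.623 TPM with a ratio of 0.70 that did not pass the test, 4 genes at 0 counts including Nkx2-1, and none of the 4 tested called. Adipocyte markers were expressed for 3 of 7, namely Fabp4 (70.3 TPM), Lpl (43.3 TPM) and Cebpa (7.90 TPM), which other cells also use, while Adipoq had 1 count and 0 counts and Lep 0. Lpl was lower in replicate 2 (-0.25).

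All 9 macrophage markers found of 10 were expressed, 2 of them lower in replicate 2 (8.65% of all genes tested). C1qb (98.1 TPM), Tyrobp (81.2 TPM) and C1qa (78.4 TPM) were highest and Ptprc lowest (3.65 TPM). Ratios were -0.51 for C1qa and 0.36 for Ptprc, the latter not passing the test. All 10 endothelial markers were expressed, 4 higher (8.85% of all genes tested) and 1 lower (8.65% of all genes tested). Cdh5 (73.5 TPM), Kdr (49.8 TPM) and Tie1 (35.5 TPM) were highest and Sox17 lowest (3.67 TPM). The largest ratios were in Pecam1 (0.50) and Sox18 (0.30, not passing the test). The genes listed as markers of the labelled tissue were present. All 11 markers of fold fibroblasts and mesothelium were expressed, from Msln (4.86 ± 0.955 TPM) to Col1a1 (2810 TPM), Col3a1 (2521 TPM) and Pdgfra (368 TPM). Of the 11, 3 were higher (8.85% of all genes tested) and 2 lower (8.65% of all genes tested), none by 2-fold. The largest ratios were in Msln (0.36, not passing the test) and Tcf4 (0.23). Tcf4 here is the gene of that symbol on chromosome 18, and Tcf7l2, on chromosome 19, is a separate gene of the list. Whether Tcf4 marks fold fibroblasts was not tested. All 10 skeletal muscle markers were expressed, from Ttn (14.7 TPM) to Myog (648 TPM), Myh3 (542 TPM) and Actc1 (1924 TPM). Of the 10, 4 were higher (8.85% of all genes tested) and 1 lower (8.65% of all genes tested), with the largest ratios in Ttn (0.64) and Myf5 (0.32).

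**Figure D4:**
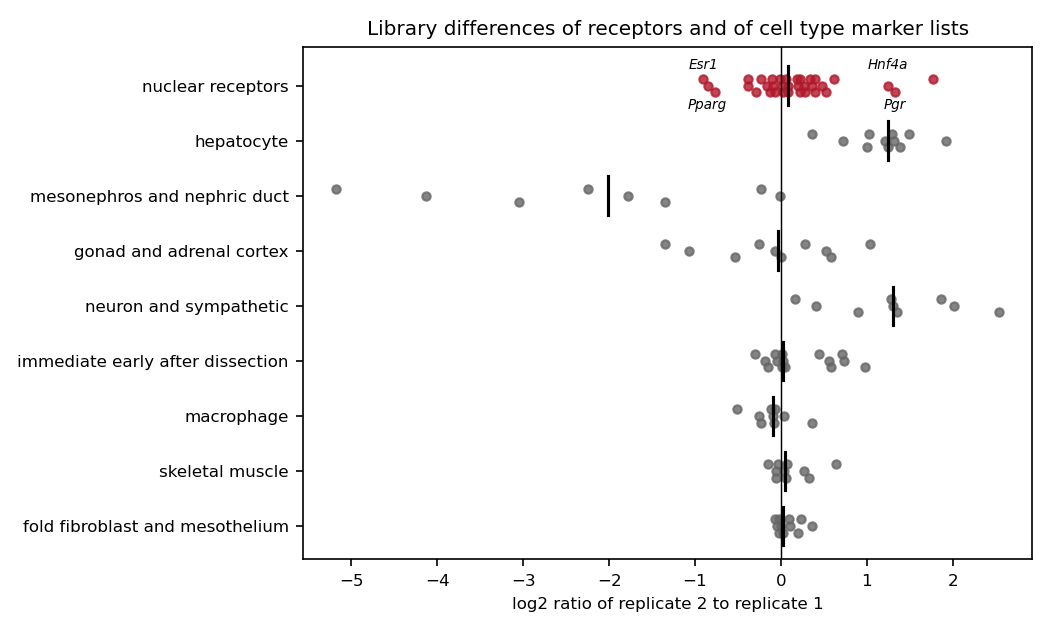
Log2 ratio of replicate 2 to replicate 1 for each receptor tested (red) and for each tested gene of 8 marker lists (grey), with black bars at the medians. The medians of the neuron and sympathetic (1.31), hepatocyte (1.25) and nephric (-2.02) markers lie apart from that of the receptors (0.084), while single genes overlap, with Hnf4a (1.25), Pgr (1.32) and Rorb (1.77) among the receptors inside the range of the hepatocyte markers. Cdh16, at the far left, had 0 counts in replicate 2, so its plotted position depends on the prior count of 0.5, and the nephric median with Cdh16 at its 3-count floor was also -2.02.

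The partners and cofactors that receptors need were for the most part more abundant than the receptors. All 3 Rxr genes, which supply the common partner, were expressed, with Rxra at 68.7 and 70.2 TPM, Rxrb at 61.1 TPM in each library and Rxrg at 22.6 and 22.3 TPM. None of the 3 passed the library test, with ratios from -0.058 to -0.008. Rxra exceeded every receptor of the 40 except Thra. Over the 11 lists of partners, cofactors, hormone handling and targets, 91 of 119 different genes other than the 40 receptors were expressed.

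All 15 coactivators were expressed, with a median of 38.6 TPM. The arginine methyltransferase genes Prmt1 (428 ± 11.3 TPM) and Carm1 (186 ± 4.71 TPM) were highest, followed by Pprc1 (63.9 ± 0.746 TPM). Ppargc1a, the inducible coactivator of mitochondrial biogenesis, was lowest at 1.94 ± 0.0362 TPM. Between libraries 5 were higher (8.85% of all genes tested) and 2 lower (8.65% of all genes tested), none by 2-fold. The largest ratios were in the steroid receptor coactivators Ncoa2 (0.26) and Ncoa1 (0.26). Ratios rose with gene length, as given above, and the deposited lengths of Ncoa2 and Ncoa1 were 14344 and 7328 bases. Calls in this and the other gene lists are given without the length correction and without the test with dispersion.

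All 12 corepressors were expressed, with a median of 52.0 TPM. Tbl1x (109 ± 5.36 TPM), Hdac3 (107 ± 3.57 TPM) and Sin3a (85.5 ± 6.35 TPM) were highest and Bcl11b (4.88 ± 0.286 TPM) lowest. Between libraries 5 were higher (8.85% of all genes tested) and 1 lower (8.65% of all genes tested), none by 2-fold. The largest ratios were in Lcor (0.43) and Nrip1 (0.24).

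Steroid receptors are held ready for hormone by an Hsp90 chaperone machine, and all 10 of its genes were expressed, with Hsp90ab1 at 3135 ± 7.13 TPM, Stip1 at 404 ± 19.4 TPM and Fkbp4 at 388 ± 36.4 TPM. Dnaja1 was lowest, at 31.3 ± 1.35 TPM. Of the 10, 8 were lower in replicate 2 (8.65% of all genes tested) and none higher, all by less than 2-fold. The share over all genes tested is not matched for counts, and a test with counting error only calls small ratios in genes of many counts. Hsp90ab1 passed at a ratio of -0.043, from 79909 and 68241 counts. The median ratio of the 10 chaperone genes was -0.14, and the largest were in Ptges3 (-0.28) and Fkbp4 (-0.23). Nr3c1, their best known client, had a ratio of -0.093 that did not pass the test.

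**Figure D5:**
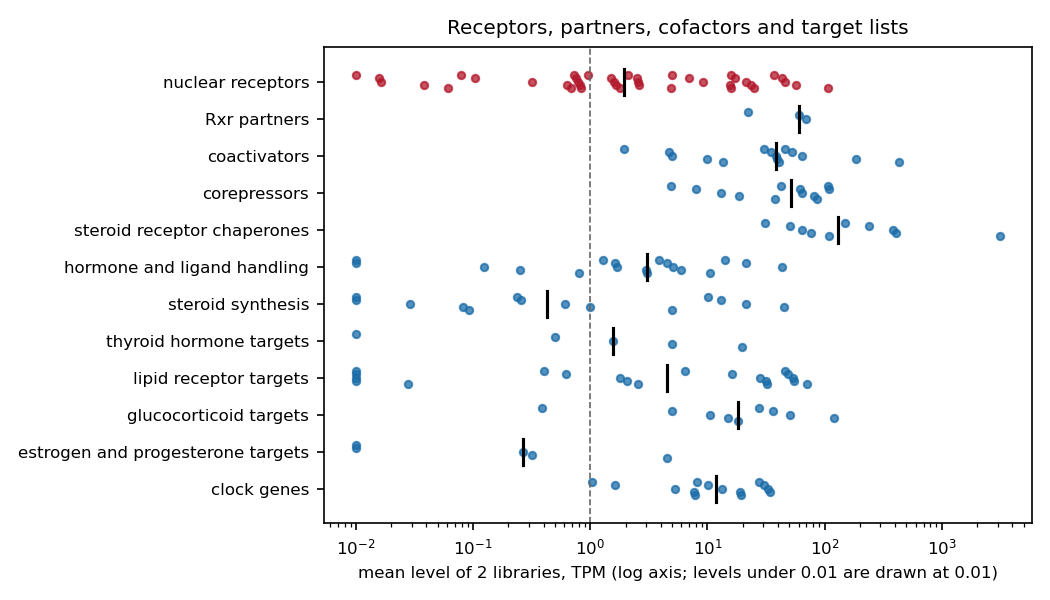
Mean level over both libraries, in TPM on a log axis, of each receptor (red) and of each gene in the 11 partner, cofactor, hormone and target lists (blue); black bars are medians, the dashed line is 1 TPM, and levels under 0.01 are drawn at 0.01. The receptor median (1.95 TPM) lies below those of coactivators (38.6 TPM) and corepressors (52.0 TPM).

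Genes that carry, activate or degrade the ligands were expressed in 11 of 18 cases (19 listed). Among them were Cyp7b1 (21.5 ± 2.30 TPM), an oxysterol hydroxylase, and Srd5a1 (13.6 and 14.4 TPM), a steroid reductase. Dio1, a deiodinase, and Cyp24a1, which degrades vitamin D, had 0 counts in both libraries. Dio2, Ttr and Gc were higher in replicate 2, all by 2-fold or more (0.710% of all genes tested). Ttr (1.38) and Gc (2.09), carriers of thyroid hormone and vitamin D secreted by liver, moved in the direction of the hepatocyte markers, and Ttr is itself on that list.

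Steroid synthesis genes were expressed in 5 of 14 cases. Fdx1 (45.3 ± 4.86 TPM), Tspo (21.5 ± 4.48 TPM) and Fdxr (12.9 ± 1.11 TPM), which also serve other mitochondria, were highest. Cyp11b1 and Cyp11b2, the adrenal hydroxylases, had 0 counts. Star, the cholesterol transporter of steroid-producing cells, was higher in replicate 2 (0.59) and Tspo lower (-0.46), and Cyp17a1 had 7 and 13 counts, a ratio of 1.03 that did not pass the test.

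Of 5 thyroid hormone target genes 3 were expressed: Me1 at 19.6 ± 0.0702 TPM, Klf9 at 5.02 ± 1.02 TPM and Hr at 1.56 ± 0.102 TPM. None was called between libraries, and the largest ratios were 0.38 for Klf9 and 0.18 for Thrsp, which had 5 counts in each library. Targets of the lipid receptors were expressed in 13 of 20 cases, led by Fabp4, Cpt1a (54.6 ± 1.84 TPM) and Srebf1 (53.4 ± 2.16 TPM). The liver enzyme gene Cyp7a1 had 0 counts in both libraries. Of 15 lipid targets tested 2 were higher (8.85% of all genes tested) and 3 lower (8.65% of all genes tested), none by 2-fold. The largest ratios, in Slc10a1 (0.52) and Abcg8 (-0.52), did not pass the test.

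Glucocorticoid targets were expressed in 8 of 9 cases, with Cdkn1a at 121 ± 2.03 TPM, Fkbp5 at 50.9 ± 3.19 TPM and Tsc22d3 at 36.1 ± 2.86 TPM highest and Zbtb16 lowest at 0.391 ± 0.133 TPM. Fkbp5 and Tsc22d3 were lower in replicate 2, by less than 2-fold. Mt2 was higher (0.96), but it shares 73.5% of its exon bases with another gene, and Zbtb16 had a ratio of -0.72 that did not pass the test. Of 5 estrogen and progesterone targets 1 was expressed, Greb1 (4.51 ± 0.792 TPM), which was higher in replicate 2 (0.32) while Esr1 was lower. Ihh had 4 and 6 counts, and Areg 0 in both libraries. Pgr, itself a target of estrogen receptors, has its values above. Among the clock genes 3 were higher (8.85% of all genes tested) and 1 lower (8.65% of all genes tested). Ratios were -0.83 for Npas2, not passing the test, and 0.47 for Hlf.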

How the data were processed

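RNA was measured in 2 libraries of a single group, so no comparison of conditions was possible. STAR 2.4.0a, SAMtools 1.3 and featureCounts are listed, with mm9 as the build, per the submitters' processing notes. The positions given here are those of GENCODE M21 (GRCm38), since the deposited start or end equalled that annotation's for 33 of the 40 receptors and the deposited length its exon total for 25. The sources used here do not state whether counting used strand. The authors deposited raw counts per gene, a gene length in bases and TPM values (count per base, scaled to 1000000 per library).

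The 40 members are defined by gene symbol, and that set and all gene lists were chosen with earlier results of these data known. Genes were named by a fixed rule: all 40 receptors, and of each other list the 3 with the highest mean TPM, the lowest, and the 2 with the largest ratio in size among those with at least 10 counts. Dio2, Cyp24a1, Cyp11b2, Cyp11a1, Hsd3b1, Adipoq, Lhx9, Sox9, Tcf7l2 and the exon-sharing neighbours do not come from the rule. They were picked with their values known. The lists were Rxr partners, coactivators, corepressors, steroid receptor chaperones, hormone and ligand handling, steroid synthesis, thyroid hormone, lipid receptor, glucocorticoid, and estrogen and progesterone targets, clock genes, and markers of 11 cell types or states, each with its result in the text. Sts, Ciart and Adgre1 were not analysed here, and some items of these lists are not reported here. Protein-coding status came from GENCODE and RefSeq symbols.

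Ratios used counts plus 0.5 over TMM-scaled library sizes (edgeR 4.0.16), exact binomial tests (SciPy 1.17.1) and Benjamini-Hochberg adjustment over genes with at least 10 counts. Calls required adjusted p under 0.05, with 2-fold for the main count. P-values measure only counting error between these libraries. Intervals are 95% exact Poisson for levels and Clopper-Pearson for ratios, and a count of 0 was given a floor of 3 counts. A floor of 3 counts equals 0.114 CPM (counts scaled to a library total of 1000000) in replicate 1 and 0.129 in replicate 2. Promoter windows are from RefSeq (GRCm38.p6) and finger sequences from GENCODE M21 transcripts. Alternatives tried were other TPM thresholds, scalings, count filters, fold thresholds and gene lengths, a test with dispersion, and single libraries. A gene-length correction and the omission of receptors that share at least 10% of exon bases were added after the data were seen. Calls were recomputed with DESeq2 1.42.0 size factors.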

Additional observations from a re-analysis of the deposited data

How the results depend on the processing

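No paired analysis was possible because the libraries form a single group. The count of expressed receptors (24) was 31 at 0.5 TPM, 18 at 2 TPM, 12 at 10 TPM, 21 without the 3 receptors that share at least 10% of their exon bases, and 24 to 25 from single libraries. Genes of the other lists went from 91 to 93 and 94 in single libraries. The median receptor level (1.95 TPM) was 2.18 TPM without features shorter than 200 bases, 2.57 TPM over receptors with at least 10 counts, 1.93 TPM with a pseudocount of 0.1, 1.65 TPM without the 3 overlapping receptors, and 1.96 to 1.98 TPM in single libraries. The count of receptors differing between the libraries (1) was 0 at a filter of at least 100 counts, which leaves Hnf4a untested, 6 with no fold threshold, 2 at 1.5-fold and 0 with edgeR's exact test at the common dispersion. That test ended the calls of Vdr, Hnf4a, Nr2c2, Nr2f6 and Nr4a2 and left the other 29 receptors on their side of the threshold. DESeq2 size factors brought Nr2f1 past it (exact binomial test, adjusted p = 0.0487). No ratio changed sign under any alternative run. With 1 library a side, the comparison of libraries cannot be repeated with a library left out. The order of levels depends on the length used. Per base of the longest transcript the same 5 genes led, with Nr1h2 at rank 2 and Nr2f2 at rank 3. Per base of all annotated exons Nr2f6 ranked 2, Nr2f2 4, Nr3c1 5 and Nr2c2 6. The 6 receptors under 10 counts had no test.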
